A study of Saccharomyces cerevisiae with 4 samples.

Results

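The 52 genes described here encode the proteins of the small (decoding) subunit of the cytosolic ribosome of budding yeast, Saccharomyces cerevisiae, and Asc1, the subunit's RACK1-type scaffold protein. They are the RPS genes and ASC1 that lie outside chromosome X, with the A and B copies of duplicated genes where they lie there, and were chosen by their systematic names. They are 52 of the 7126 features in the count table. RefSeq's R64 annotation gives all 52 the same start and end as the count table, and all 52 were among the 6139 genes with enough counts to be tested. A further 5 small-subunit genes lie on chromosome X and are given beside them.

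The small subunit binds the messenger RNA and the initiator transfer RNA, finds the start codon and reads the codons. Most of its proteins are encoded in yeast by a pair of duplicated genes, named A and B, that give the same or nearly the same protein. Their transcription depends on the DNA-binding protein Rap1 with Fhl1, Ifh1 and Sfp1, and is known to go down in stress and when nutrients are short. ULP1 encodes an essential protease at the nuclear pore that processes the precursor of SUMO, a small protein attached to other proteins, and detaches it again.

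Polyadenylated RNA was sequenced from a wild-type strain (MH1006, 2 libraries) and a strain with the ulp1-I615N allele (MH1018, 2 libraries). Both were MATa, with the markers ade2-delta and ade3-delta, lys1::kanMX4, trp1-289, ura3-52 and a mutant leu2 allele, and both were grown in YPD, a rich glucose medium, to mid-log phase at 30°C. Each genotype is 1 named strain. Whether the replicates were grown separately is not in the labels, and the p-values reflect library-to-library spread that could be technical alone. A point mutation cannot be checked from counts per gene. In the mutant, genes on chromosome X were higher by a median log2 fold change of 0.73 over 373 tested genes, so that the ULP1 allele and the raised chromosome X cannot be told apart. Library totals ran from 13244131 to 26723470 fragments. Every one of the 52 genes had at least 1015 fragments in each library.

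The small-subunit genes outside chromosome X were lower in the mutant by a nearly common amount. Of the 52 genes 49 fell, 0 rose and 3 were not called, whereas 24.3% of the 6139 tested genes (25.9% of those outside chromosome X) were called lower and 26.4% higher. A call is an adjusted p under 0.05 in edgeR's quasi-likelihood test. Their median log2 fold change was -0.47, a fall of 1.39-fold, while the median over all tested genes was 0.01. All but RPS22B and RPS26B lay between -0.65 and -0.24. The SD of the log2 fold changes was 0.17 over the 52 genes and 0.09 over the genes other than RPS22B. The median standard error of a single gene was 0.08. That error includes differences between libraries that the genes share, so it does not measure how far noise alone would spread the genes. Among 765 other genes outside chromosome X with a mean of 200 CPM (counts relative to the scaled library total) or more, 54.6% were called lower, with a median of -0.20 and an SD of 0.47. The count of 49 is read against that larger share too. These values are relative to all RNA counted, so less RNA of a gene per cell and more RNA of other genes cannot be told apart.

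**Figure D1:**
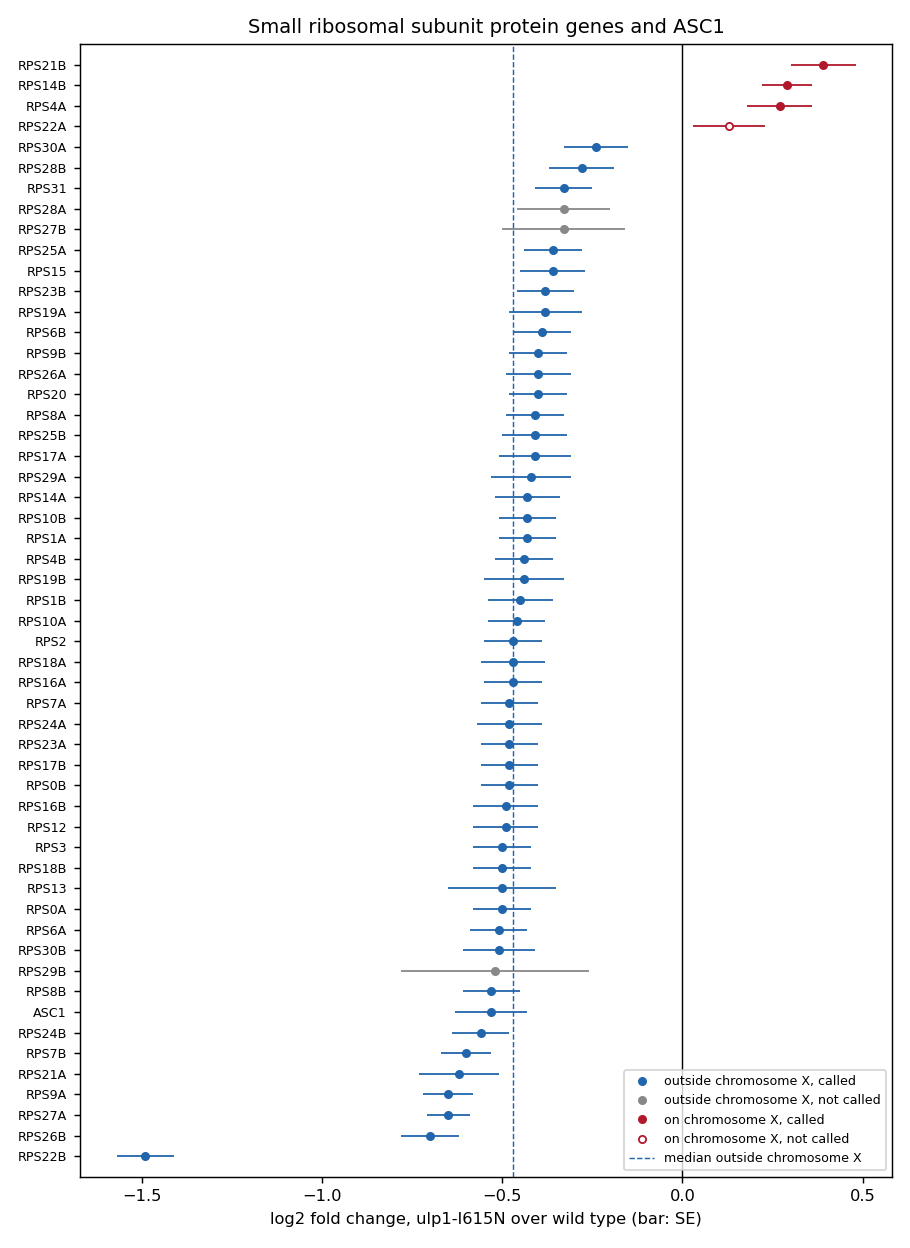
The log2 fold change of small-subunit genes, mutant over wild type (horizontal axis, bars are standard errors), for 50 genes outside chromosome X and 4 on it. The 50 lie between -1.49 and -0.24, and the 4 on chromosome X lie between 0.13 and 0.39.

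The fall was seen in both mutant libraries. In mutant replicate 1 all 52 genes were below both wild-type libraries, with a median of -0.54 on the log2 scale relative to the wild-type mean, and in mutant replicate 2 this held for 51 genes, with a median of -0.40. Both mutant libraries lay below both wild-type libraries for 51 of the 52 genes, all but RPS27B. The same held for 36% of all tested genes. It held for 491 of the 765 other genes outside chromosome X with a mean of 200 CPM or more. The wild-type libraries also differed: replicate 2 was above replicate 1 for 52 of 52 genes, and mutant replicate 2 was above mutant replicate 1 for 49. The spread between replicates was therefore shared by the genes and they do not give 52 separate measurements. Together the 52 genes took 8.22% and 8.50% of all counts in wild type, against 6.47% and 6.91% in the mutant, and the groups did not overlap. With 2 libraries in each group no exact permutation test of this single value can reach 0.05.

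**Figure D2:**
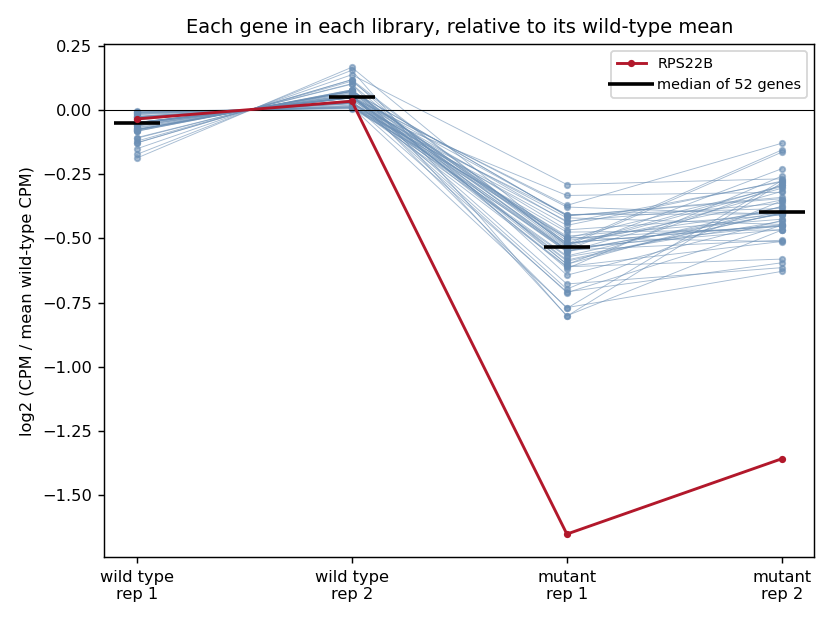
CPM of each of the 52 genes in each library, as the log2 ratio to the mean of its wild-type libraries; each line is 1 gene and black bars are medians. The medians are -0.05 and 0.05 for wild type, and -0.54 and -0.40 for the mutant; RPS22B lies below all others in both mutant libraries.

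Genes present in a single copy outside chromosome X fell in each of 8 cases, with a median of -0.48. ASC1 (YMR116C, chromosome XIII, 499456 to 500688, minus strand, sacCer3), whose protein sits on the head of the subunit and takes part in quality control of stalled ribosomes, was at 3772 and 4472 CPM in wild type, against 2639 and 3060 for the mutant. Each mutant library was below each wild-type library, with a log2 fold change of -0.53 ± 0.10 (SE, adjusted p = 0.00055). RPS3 (YNL178W), whose protein lies at the entry of the messenger RNA channel, was at 3249 and 3480 CPM in wild type, against 2319 and 2435 for the mutant (-0.50 ± 0.08). RPS2 (YGL123W), another protein of the channel entry, was at 3483 and 3506 CPM against 2513 and 2528 (-0.47 ± 0.08). In both of these the replicates lay closer together than the groups. RPS2 overlaps another annotated feature, so its counts are uncertain.

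RPS31 (YLR167W) encodes a fusion of ubiquitin to a ribosomal protein, so that its transcript is also a source of ubiquitin. Per kilobase it was the most abundant of the 52 in wild type, at 10810 CPM per kilobase against a median of 3258. Its level was 4928 and 5000 CPM in wild type, against 3941 and 3975 for the mutant, a fall of 0.33 on the log2 scale (SE 0.08, adjusted p = 0.00425), smaller than the median of the group. RPS12 and RPS20 encode proteins of the head. RPS12 was at 3091 and 3321 CPM against 2138 and 2428 (-0.49), and RPS20 at 3305 and 3337 against 2460 and 2582 (-0.40). RPS15, a head protein gene needed for export of the subunit precursor from the nucleus, was at 2534 and 2584 CPM in wild type, against 1874 and 2112 for the mutant (-0.36, adjusted p = 0.0024). RPS13 (YDR064W) was at 1666 and 1812 CPM against 1018 and 1438 (-0.50 ± 0.15, adjusted p = 0.0263). Its mutant libraries stood far apart: without mutant replicate 1 it was at -0.27 and not called (adjusted p = 0.0505), and RPS15 was then at -0.28 and not called (adjusted p = 0.0591). RPS19A, called with all libraries, was likewise not called without it.

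Subsets by position in the subunit or by introns had nearby medians. The 22 head proteins' genes had a median of -0.43 and the 30 genes of the body and platform -0.48. The 34 genes with an annotated intron had a median of -0.48 and the 18 without one -0.42. None of these gaps was tested. The 3 genes that were not called are all short: RPS29B, RPS28A and RPS27B have 171, 204 and 249 exon bases. Of the 9 genes under 300 bases 6 fell, and of the 43 longer ones 43 fell. RPS29B was at 468 and 588 CPM in wild type, against 303 and 434 for the mutant (-0.52 ± 0.26, adjusted p = 0.215), so its point estimate was like that of the group with a wider error. RPS28A was at 608 and 722 CPM against 461 and 593 (-0.33 ± 0.13, adjusted p = 0.0624), and RPS27B at 491 and 628 against 390 and 503 (-0.33 ± 0.17, adjusted p = 0.19), where the groups overlap. RPS28B (456 and 557 CPM against 414 and 421, -0.28) and RPS30A (742 and 794 against 594 and 702, -0.24) had the smallest falls that were called. Without wild type replicate 2 neither of these was called (-0.13, adjusted p = 0.201, and -0.20, adjusted p = 0.0704), and RPS30A was not called without mutant replicate 1 (-0.13, adjusted p = 0.363).

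RPS22B stood apart from the other 51. RPS22B (YLR367W, chromosome XII, 856442 to 857317, plus strand, sacCer3) encodes a protein of the subunit body, has an annotated intron of 483 bases, and carries the small nucleolar RNA gene snR44 inside that intron. It was the least abundant of the 52 per kilobase. Its level was 222 and 233 CPM in wild type, against 72.5 and 88.8 for the mutant, from 228 ± 7.72 to 80.7 ± 11.6 (SD, n = 2 each). The mutant libraries were far below the wild-type libraries, and the fold change was 2.80 (log2 fold change -1.49 ± 0.08 SE, edgeR adjusted p = 2.55e-08). With 1 library left out it stayed between -1.65 and -1.36 and was called each time. The feature snR44 itself was at 34.4 and 36.4 CPM in wild type, against 17.3 and 19.6 for the mutant (-0.93, adjusted p = 1.65e-06). The counting ignored strand and the libraries were selected for polyadenylated RNA, so fragments of the intron and of the small RNA cannot be told apart there.

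The next largest falls were those of RPS26B, RPS27A, RPS9A and RPS21A. RPS26B (YER131W), whose protein lies where the messenger RNA leaves the subunit, was at 1498 and 1523 CPM in wild type, against 886 and 977 for the mutant (-0.70 ± 0.08, adjusted p = 2.6e-06). RPS27A (YKL156W) was at 254 and 263 CPM against 158 and 171 (-0.65 ± 0.06), and it overlaps 1 other annotated feature, so its counts are uncertain. RPS9A (YPL081W), of a body protein that takes part in decoding accuracy, was at 493 and 537 CPM against 322 and 336 (-0.65 ± 0.07). In each of these both mutant libraries were below both wild-type libraries. RPS21A (YKR057W) was at 665 and 770 CPM against 412 and 519 (-0.62 ± 0.11, adjusted p = 0.000872).

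Where the introns begin is shown for some of the genes whose falls stood out or whose copies differed. Of the 34 introns 24 begin with GTATGT, 70.6%, against 73% of 281 annotated introns in nuclear coding sequences, and 31 hold the branch sequence TACTAAC, 91.2% against 82.6%. The 10 bases before and the first 10 bases of the intron are given, with the first 6 intron bases in capitals (RefSeq R64, coding strand, 5′ to 3′):
RPS22B, chrXII:856565-856584, plus strand: caaaagcatgGTATGTtcca
RPS21A, chrXI:551671-551690, plus strand: gggccaattaGTATGTtcga
RPS9A, chrXVI:404947-404966, plus strand: aacatgccaaGTACGTcgtt
RPS9B, chrII:604505-604524, plus strand: acaatgccaaGTACGTatta
RPS30A, chrXII:713146-713165, minus strand: cgcaaatatgGTACGTaatg
RPS30B, chrXV:678781-678800, minus strand: atacaaaatgGTACGTtaat
RPS22B has the common first bases and 1 TACTAAC, 17 bases before the intron's end, whereas RPS21A, RPS9A and RPS9B hold no exact TACTAAC. RPS27A, not shown but also among the largest falls, begins with GTATGT and holds 1 TACTAAC, 32 bases before its intron's end. RPS9B, without TACTAAC, was at -0.40, a smaller fall than the median of -0.47. Both copies of RPS9 and both of RPS30 begin with the less common GTACGT. So do RPS17B and both copies of RPS19, a pair not called different between its copies (0.06, limma adjusted p = 0.586). A match or its absence is a description of the letters only.

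Both copies of most pairs fell together. Of the 20 pairs with both copies outside chromosome X, 17 had both copies called lower, against 7.22% of 6123 pairs of neighbouring genes. The neighbouring pairs, here and below, include genes with few counts and genes on chromosome X, so they are not matched to the paralogs. Taken singly, 54.6% of the 765 other genes outside chromosome X with a mean of 200 CPM or more were called lower. The sum of the 2 copies was lower in both mutant libraries than in both wild-type libraries for all 20, as it was for 42.8% of the neighbouring pairs, with a log2 ratio of the group means from -0.52 (RPS26) to -0.31 (RPS28) and a median of -0.45. The 3 most abundant pairs were not called different between their copies. RPS1A was at 2746 and 2852 CPM in wild type, against 2092 and 2055 for the mutant, and RPS1B at 2851 and 3159 against 2112 and 2290. The difference between their log2 fold changes was 0.02 (95% interval -0.16 to 0.20). For RPS0A and RPS0B it was -0.02 (-0.19 to 0.15). RPS6A and RPS6B, whose protein is phosphorylated by kinases under the growth regulator TOR, differed by -0.11 (-0.28 to 0.05). Their coding sequences are 99.2% identical, with a run of 311 identical bases, and no option to count fragments that map to more than 1 place was set.

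The share of copy A within a pair does not depend on scaling between libraries. Wild-type and mutant shares were separate in 10 of the 20 pairs, and in 71% of 6123 pairs of neighbouring genes. In a limma fit of the log2 ratio over these neighbours and the paralogs, 3 of the 20 pairs were called different, against 40.6% of the neighbours (adjusted p under 0.05). With the replicate number as a block 9 of the 20 were called, against 45.9% of the neighbours. The share of RPS26A rose from 55.1% and 55.0% of the pair in wild type to 59.6% and 60.6% in the mutant, a difference between the copies' log2 fold changes of 0.30 ± 0.08 (SE, adjusted p = 0.00942). Only the B copy was among the largest falls: RPS26A itself was at 1837 and 1861 CPM in wild type, against 1308 and 1503 for the mutant. The share of RPS30A rose from 70.2% and 70.0% to 74.6% and 73.2% (0.27 ± 0.09, adjusted p = 0.0242). That of RPS9A fell from 15.7% and 15.9% to 13.4% and 13.8% (-0.25 ± 0.08, adjusted p = 0.0275); it is the minor copy. RPS27A was at 34.1% and 29.5% in wild type, against 28.9% and 25.4% for the mutant, which did not pass (-0.32 ± 0.12, adjusted p = 0.0507). It was called with 5 counts added to each copy in place of 0.5, with the replicate block and without wild type replicate 2. In the 15 pairs that differed least the gap was under 0.15. With 1 library left out, RPS26 was called in 2 of 4 fits (adjusted p up to 0.0615) and RPS30 and RPS9 in 0 of 4 (up to 0.183 and 0.14), so the RPS30 and RPS9 calls rest on all 4 libraries. The RPS26 call ended without wild type replicate 2 and without mutant replicate 2.

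**Figure D3:**
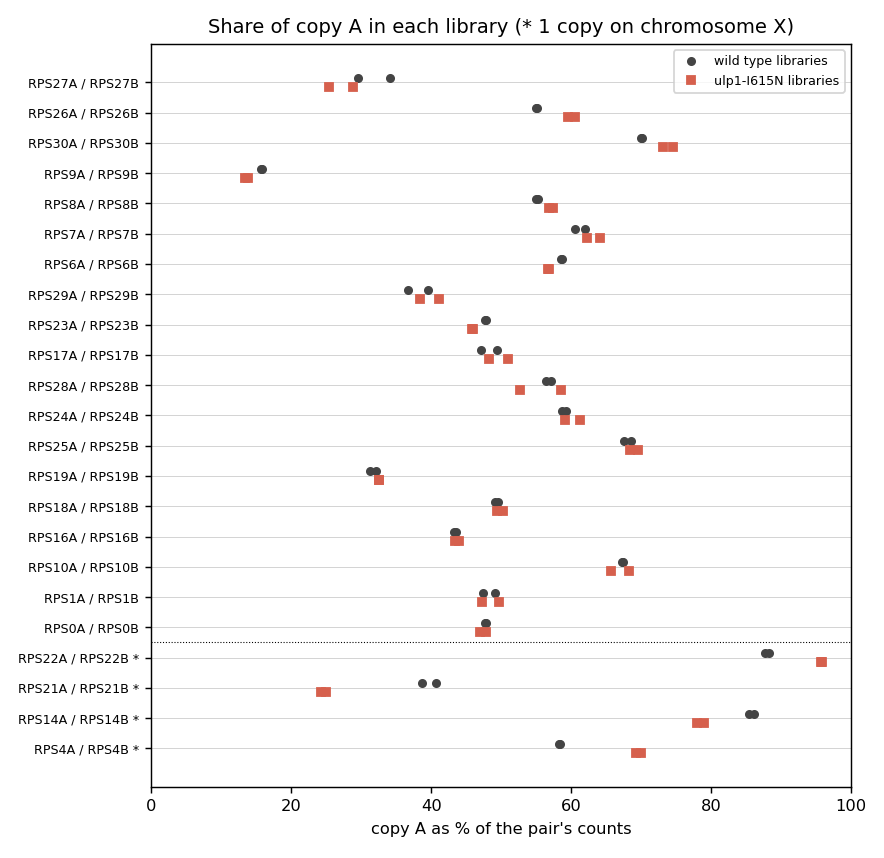
Copy A as a percentage of its pair's counts (horizontal axis) in each library, for 19 pairs outside chromosome X (above the dotted line) and 4 pairs with 1 copy on it (below). RPS26, RPS30 and RPS9 show the separated groups that were called, and the 4 lower pairs show the widest shifts.

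In 4 families 1 copy lies on chromosome X. The copy outside it fell in all 4, and the copy on it rose in 3 and was not called for RPS22A. RPS4B fell from 2199 and 2321 CPM to 1635 and 1702, while RPS4A, on chromosome X, rose from 3079 and 3257 to 3681 and 3965. The sum was 5428 ± 212 CPM in wild type and 5491 ± 249 in the mutant (SD, n = 2 each), a gap smaller than the spread between replicates. The coding sequences of RPS4A and RPS4B are 98.1% identical, so the split of counts between them is uncertain. RPS21B was at 1054 and 1125 CPM in wild type, against 1287 and 1565 for the mutant, and RPS22A at 1581 and 1755 against 1657 and 1992. RPS22A held 87.7% and 88.3% of its pair in wild type, so the sum of that pair says little about the fall of RPS22B. The sum of RPS21A and RPS21B was 1807 ± 125 against 1891 ± 272 CPM, and that of RPS22A and RPS22B 1896 ± 131 against 1905 ± 248, also within the replicate spread. RPS14 differed: RPS14A, of a platform protein, holds 85.4% and 86.2% of its pair in wild type, fell from 2015 and 2245 to 1481 and 1671 CPM while RPS14B rose from 345 and 360 to 417 and 444, and the sum was 2482 ± 174 in wild type and 2006 ± 154 in the mutant. The differences between the copies' log2 fold changes, A minus B, were 0.71 ± 0.07 for RPS4, -0.72 ± 0.08 for RPS14, -1.01 ± 0.08 for RPS21 and 1.63 ± 0.09 for RPS22 (limma adjusted p from 2.12e-07 to 5.41e-05), and all 4 were called with any 1 library left out.

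**Figure D4:**
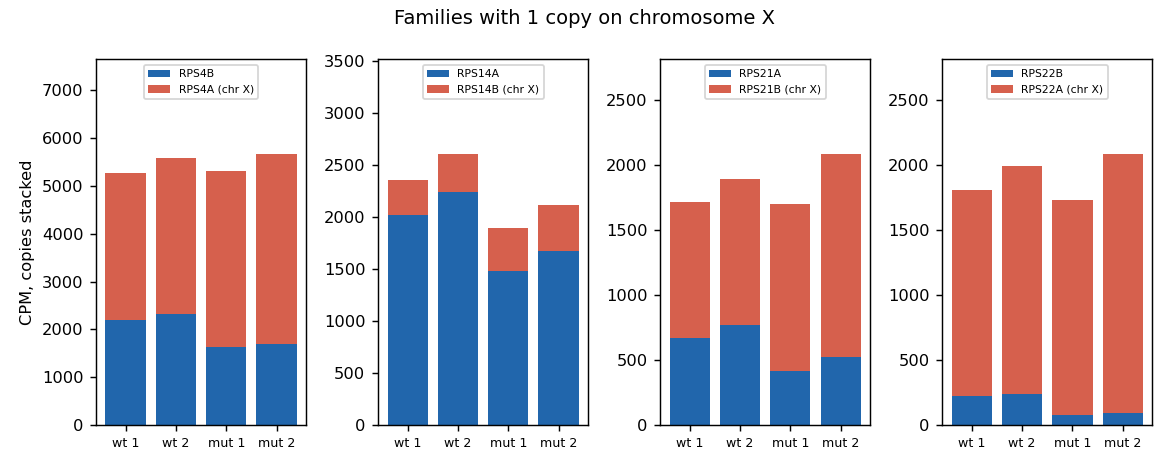
CPM of the 2 copies, stacked, in each library for the families with a copy on chromosome X. The sums of RPS4, RPS21 and RPS22 overlap between the strains, and that of RPS14 is lower in both mutant libraries.

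The small-subunit genes on chromosome X lay below the median of that chromosome. Of the 5 genes 4 rose, between 0.27 and 0.39 on the log2 scale, and RPS22A was not called (0.13, adjusted p = 0.286). RPS22A was called with library totals as the scaling (0.26, adjusted p = 0.00722) and with the replicate block (0.13, adjusted p = 0.0322), and was at -0.01 without mutant replicate 2. Relative to the chromosome's median of 0.73 the 5 genes were at -0.34 to -0.60. The calls of RPS4A and RPS21B each ended without mutant replicate 2 (0.22 and 0.24), and that of RPS4A also without wild type replicate 1 (0.22).

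Letters of the Rap1 binding site were common upstream of the 52 genes. Rap1 binds upstream of most ribosomal protein genes, often at paired sites. In the 500 bases before each gene's first base, on either strand, a longer Rap1 pattern was found for 16 of 52 genes (30.8%) and for 4.29% of 5972 protein-coding genes. The site's core CCNTACAT, which can overlap the longer pattern and was added after that had been counted, was found for 22 genes (42.3%), against 5.63% of all genes and 39.7% of 78 large-subunit genes. The Abf1 pattern was found for 21.2%, against 22.7% of all genes, and TTTTTTTT for 38.5% against 44.2%. Of the members 6 held the core at 2 or more places, and the 4 in which all places point the same way are shown with the core in capitals (RefSeq R64, coding strand, 5′ to 3′):
RPS6A, chrXVI:378806-378858, minus strand: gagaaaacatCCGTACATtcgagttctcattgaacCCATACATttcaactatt
RPS6B, chrII:593059-593103, minus strand: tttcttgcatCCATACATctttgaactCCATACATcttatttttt
RPS17B, chrIV:1355830-1355881, minus strand: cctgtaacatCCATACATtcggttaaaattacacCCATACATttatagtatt
RPS30B, chrXV:679001-679036, minus strand: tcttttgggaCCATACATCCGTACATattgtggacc
In RPS30B the places directly adjoin. RPS16A and RPS16B, the others with 2 or more, hold the core in both orientations. The 22 genes with the core had a median of -0.47 and the 30 without it -0.46. RPS30B and RPS6A were at -0.51, RPS17B at -0.48 and RPS6B at -0.39.

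Genes of the large subunit and of small-subunit assembly mostly fell too. For comparison, 25.9% of tested genes outside chromosome X were called lower. That share was 54.6% for the 765 other genes there with a mean of 200 CPM or more. Of 78 genes of the large subunit and its stalk outside chromosome X, 72 fell, 0 rose and 6 were not called, with a median of -0.45; the difference from the small-subunit genes was not tested. Of 15 late assembly factors and dedicated chaperones of the small subunit 14 fell and 0 rose, with a median of -0.40. The largest falls were those of PNO1, a factor that holds the immature end of the subunit's RNA, at -0.61 ± 0.06, of LTV1 and ENP1, both parts of the late precursor, at -0.58 ± 0.06 each, and of the methyltransferase gene EMG1 at -0.58 ± 0.07. PNO1 overlaps another annotated feature. Of 12 regulators of ribosomal protein genes 7 fell, 1 rose and 4 were not called (median -0.23). The share of regulators that fell was 58.3%, beside 25.9% of tested genes outside chromosome X and 54.6% of the abundant genes. Most of the regulators and of the assembly factors had a mean under 200 CPM, so the abundant genes are not like them in level. UTP22, whose protein belongs to ribosome assembly and also to a complex with Ifh1, was at 265 and 287 CPM in wild type, against 189 and 198 for the mutant (-0.51 ± 0.06). RAP1 was at 141 and 147 CPM against 106 and 108 (-0.42 ± 0.06, adjusted p = 3.49e-05), and FHL1 at 99.1 and 99.4 against 75.8 and 75.2 (-0.39 ± 0.07, adjusted p = 0.000113). TOR1, the gene that rose, lies on chromosome X (0.47 ± 0.06), below that chromosome's median of 0.73.

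**Figure D5:**
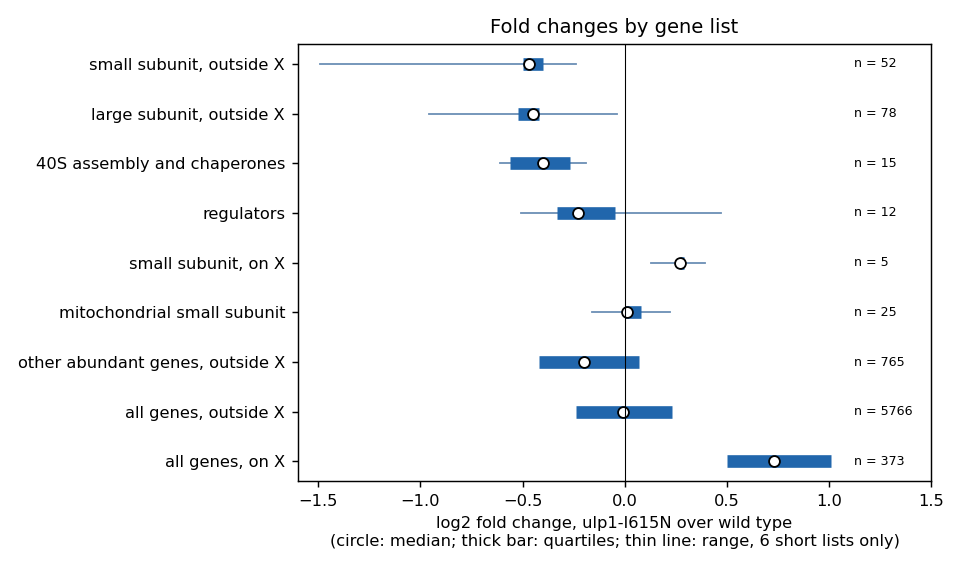
Log2 fold changes by gene list: circles are medians, thick bars are quartiles, and thin lines are the full range for the 6 short lists. The small-subunit genes outside chromosome X have a median of -0.47, those on it 0.27, and the mitochondrial small-subunit genes 0.01.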

How the data were processed

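Fragments were counted per gene by the authors with featureCounts 2.0.0 on read pairs, per the file headers; alignment with HISAT2 2.1.0 to sacCer3 is taken from the submitters' processing notes. The deposited values are raw counts. No strand, multi-mapping or overlap option was set, so fragments shared by near-identical copies or overlapping features can be missing from the counts. Symbols, introns and sequences came from RefSeq R64, the same assembly.

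All genes were tested together with edgeR 4.0.16 in R 4.3.3 (TMM scaling, minimum count 10 and minimum total 15, robust quasi-likelihood test, mutant against wild type, n = 2 each), with Benjamini-Hochberg adjustment over 6139 genes. CPM values used the same scaling. Ratios within a pair, with 0.5 counts added to each copy, were fitted with limma 3.58.1 over 6147 pairs; this test was added after the data were seen. Both fits were tested on simulated data with known changes. There the pair fit missed most of the smallest changes, so a pair that was not called can still differ. Counting error (95% Wilson interval) of a pair share was at most ± 1.14 percentage points. Replicates differed by more than sampling noise (chi-square per degree of freedom 9.95 and 9.03).

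The genes and lists were chosen with earlier results of these data known. Genes named in full are the single-copy genes, those with a paralog on chromosome X, the 5 largest and 5 smallest falls, uncalled genes, and the pairs that differ most or are most abundant; other lists name up to 4 called genes. Alternatives were other scalings and filters, DESeq2 1.42.0, limma-voom, a replicate block, each library left out, and chromosome X left out. The values of a few genes are not reported here.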

Additional observations from a re-analysis of the deposited data

How the results depend on the processing

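The 52 log2 fold changes stayed negative under all 14 alternatives. Between 46 and 52 genes were called lower and 0 higher; with 1 library left out 46 to 52 were lower, with medians from -0.54 to -0.40. Scaled by library totals alone, the median of the 52 moved to -0.34 and that of all genes to 0.14, and the gap between them stayed at -0.48. With chromosome X left out of the denominator the share of counts was 8.85% in wild type and 7.36% in the mutant. Of pairs whose copies differed, 3 were called as reported, 4 with 5 counts added in place of 0.5, 9 with the replicate block and 1 in each fit with 1 library left out (RPS26 in 2 of these fits). The replicate block called all 52 genes lower; the labels do not say what the replicate number marks, and deviations of the replicate 1 libraries from their group means correlated at 0.134 over 5732 genes. RPS22A reversed to -0.01 without mutant replicate 2, within a range of -0.01 to 0.26 over the fits with 1 library left out. For 34 single genes, 440 of 471 values kept their direction and side of the threshold, 15 passed only under the alternative, 15 no longer passed and 1 reversed. RPS13 was not called with DESeq2 (adjusted p = 0.0911) or library totals (0.186), and RPS28B and RPS30A were not called with library totals. RPS27B, RPS28A and RPS29B were called with limma-voom and with the replicate block. The causes were not tested. Where 1 library was left out, the remaining one takes its spread from the other strain.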

Other observations

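The genes of the mitochondrial ribosome's small subunit were mostly not called. Of 25 of its genes outside chromosome X, found by the names MRPS, RSM and MRP, 23 were not called, 1 was higher (MRPS5, 0.22, adjusted p = 0.0384) and 1 was lower (MRP1, -0.16, adjusted p = 0.0478), with a median log2 fold change of 0.01 (edgeR quasi-likelihood test). Of all 6139 tested genes 3023 were not called, 24.3% were lower and 26.4% higher. MRPS5 was at 54.7 and 48.6 CPM in wild type, against 61.8 and 58.5 for the mutant. MRP1 was at 129 and 121 CPM against 108 and 115. Their range, -0.16 to 0.22, did not overlap that of the 52 cytosolic genes, -1.49 to -0.24. The difference between the lists was not tested.

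ASC1 carries the small nucleolar RNA gene snR24 in its intron of 273 bases. It was at 3.06 and 4.74 CPM in wild type, against 3.07 and 2.85 for the mutant, and was not called (-0.42, adjusted p = 0.216).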
